A study of Homo sapiens with 2 samples.

Results

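The genes described here code for the enzymes of sterol and fatty acid synthesis and for the regulators that set their expression. They were compared between a SOX4 knockout line of Hep3B cells and its parental line. A list of 36 genes was matched to the transcript clusters that carry 1 gene symbol in the platform annotation, and where a gene had several such clusters the brightest was kept, by the mean of the arrays. This gave values for 34 of the 36 genes, out of 33616 genes named in the value table. FDFT1 had no such cluster, and FADS1 shares its cluster with a microRNA gene, so neither has a value here.

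Hep3B is an established human hepatocellular carcinoma line. A line whose endogenous SOX4 was knocked out with CRISPR/Cas9 was compared with the parental line, labelled wildtype, with 1 array of total RNA for each. Both were taken at 80% confluence, and the knockout line alone was grown in puromycin, at 1 µg/ml, so genotype, puromycin and the single culture and array cannot be told apart. The sources used here do not state whether the knockout line is 1 clone. Values are on the log2 scale as deposited, and a difference is the knockout value minus the parental value. With 1 array per genotype there is no replicate check, and no test, standard error or p-value can be given. Precision is limited by the number of arrays.

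Cholesterol is built from acetyl-CoA through mevalonate, isoprenoid units and squalene, and fatty acids are built from the same acetyl-CoA through malonyl-CoA. Both routes are switched on by the SREBP transcription factors, which are held in the endoplasmic reticulum by SCAP and the INSIG proteins while sterols are plentiful, and are cut and sent to the nucleus when sterols fall. The liver is a main site of both routes, and in hepatocytes the carbohydrate-sensing factor coded by MLXIPL also drives fatty acid synthesis.

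The targeted gene, SOX4, read 12.44 in the knockout line against 13.14 in the parental line, so its transcript was still measured. Of 8 hepatocyte markers 7 were measured, and all were high, at 11.27 to 19.38 in the knockout line and 12.44 to 19.23 in the parental line; APOA1 alone was past 2-fold, at 11.27 against 12.44. The 4 endothelial markers lay under the level filter of 4.78, which is the median over genes of the higher of both values. Of 5 measured fibroblast and stellate markers 4 lay above it, and the 5 ran from 4.45 to 12.69 in the knockout line and from 4.54 to 8.45 in the parental line, with LUM, a matrix proteoglycan, at 12.69 against 7.90, a difference of 4.79, and COL1A1, COL1A2, DCN and PDGFRB at -0.45 to -0.09. Of 4 leukocyte markers 2 lay above it, with LYZ, lysozyme, at 11.87 against 9.62, while PTPRC, the defining marker, lay under it. Of 4 adipocyte markers 1 lay above it, the lipid droplet gene CIDEC at 5.52 against 4.25, while ADIPOQ, LEP and PLIN1 lay under it. Their part in the results below was not tested.

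SREBPs bind sterol regulatory elements in the promoters of their target genes and act together with NF-Y, which binds CCAAT. RefSeq promoter sequences of GRCh38.p14 were matched for 30 of the 36 genes, and the 250 bases before the outermost start site that the promoter table lists for each were searched on both strands. For 9 genes (MVK, PMVK, CYP51A1, SCAP, ACLY, ACACB, ELOVL6, GPAM and MLXIPL) that window lies inside the gene's own RefSeq span, so these genes have a start site farther upstream that was not searched. The windows of IDI1, FDPS, TM7SF2, ACACA, FADS1 and FADS2 overlap another protein-coding gene, in that order WDR37, PKLR, VPS51, TADA2A, FADS2 and FADS1. Any other start site of a gene was not searched, so a window without a motif does not describe every promoter of its gene. ACAT2, FDFT1, SQLE, FASN, DGAT2 and PNPLA3 had no entry. The classical element TCACCCCAC was found in 1 gene, SREBF2, and in 0.348% of all 27305 promoters of that length. The looser form TCANNCCAC, which includes it, was found in 5 of the 30, against 3.18% of all promoters. These were SREBF2, INSIG1, ACLY, ACACB and ELOVL5. CACGTG, an E-box that SREBPs and the MLXIPL factor can bind, was found in 4 of the 30, against 6.46%. CCAAT was found in 17 of the 30, or 56.7%, against 33.0% of all promoters. It was more frequent among the sterol genes, at 13 of 18, than among the fatty acid and glycerolipid genes, at 4 of 12.

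6 promoters are shown because they carry the contrasts that the values below return to: the feedback gene INSIG1, both SREBP genes, ACSS2 with the largest difference, HMGCS1 of the mevalonate arm, and SCD, which hardly differed. Capitals mark every match to the 3 motifs on either strand (ATTGG is CCAAT read on the other strand), and each run ends at the base before the start site. On GRCh38.p14, INSIG1 lies at chr7:155297628-155297877 on the plus strand, SREBF2 at chr22:41832855-41833104 on the plus strand, ACSS2 at chr20:34874739-34874988 on the plus strand, HMGCS1 at chr5:43313413-43313662 on the minus strand, SREBF1 at chr17:17836987-17837236 on the minus strand and SCD at chr10:100346983-100347232 on the plus strand.
INSIG1: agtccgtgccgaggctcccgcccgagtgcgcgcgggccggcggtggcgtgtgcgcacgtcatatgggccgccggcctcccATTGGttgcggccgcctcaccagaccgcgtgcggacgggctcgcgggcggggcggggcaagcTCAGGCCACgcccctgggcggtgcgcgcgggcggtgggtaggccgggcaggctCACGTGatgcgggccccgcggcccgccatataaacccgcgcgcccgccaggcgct
SREBF2: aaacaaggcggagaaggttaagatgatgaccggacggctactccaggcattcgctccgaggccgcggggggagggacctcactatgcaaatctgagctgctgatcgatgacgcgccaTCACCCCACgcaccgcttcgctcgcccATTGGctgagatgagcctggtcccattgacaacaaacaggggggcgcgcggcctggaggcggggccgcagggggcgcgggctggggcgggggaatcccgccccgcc
ACSS2: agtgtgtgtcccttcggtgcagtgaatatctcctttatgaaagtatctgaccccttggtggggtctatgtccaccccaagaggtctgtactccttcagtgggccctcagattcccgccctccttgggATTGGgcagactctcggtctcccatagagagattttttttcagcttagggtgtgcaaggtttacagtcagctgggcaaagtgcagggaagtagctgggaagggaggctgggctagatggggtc
HMGCS1: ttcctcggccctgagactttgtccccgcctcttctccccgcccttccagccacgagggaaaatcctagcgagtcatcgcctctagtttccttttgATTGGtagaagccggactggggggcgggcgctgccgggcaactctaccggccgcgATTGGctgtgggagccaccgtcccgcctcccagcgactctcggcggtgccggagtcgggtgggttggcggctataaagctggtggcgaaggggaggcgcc
SREBF1: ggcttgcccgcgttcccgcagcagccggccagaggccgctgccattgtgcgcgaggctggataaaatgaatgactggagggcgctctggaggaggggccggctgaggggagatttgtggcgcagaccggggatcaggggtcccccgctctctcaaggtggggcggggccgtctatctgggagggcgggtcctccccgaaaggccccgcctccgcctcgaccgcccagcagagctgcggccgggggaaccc
SCD: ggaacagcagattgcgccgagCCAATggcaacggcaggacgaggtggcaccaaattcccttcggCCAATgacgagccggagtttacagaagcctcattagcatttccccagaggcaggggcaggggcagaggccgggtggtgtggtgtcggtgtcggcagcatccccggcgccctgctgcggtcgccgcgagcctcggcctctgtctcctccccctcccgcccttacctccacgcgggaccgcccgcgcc
INSIG1 holds all 3 motifs, SREBF2 the classical element and a CCAAT, HMGCS1 and SCD a pair of CCAAT boxes each, ACSS2 a single CCAAT and SREBF1 none. The window of INSIG1 overlaps the divergent non-coding gene INSIG1-DT, and that of SREBF2 the antisense gene SREBF2-AS1. A match is a string of letters, and no binding was measured.

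Across the set, values were mostly higher in the knockout array. Of the 34 genes, all above the level filter, 27 stood higher and 7 lower in the knockout array. A positive difference was seen in 53.3% of all 16808 named genes above the filter and in 54.9% of the 11113 protein-coding ones. Past 2-fold upward were 7 of 34, namely ACSS2, PNPLA3, INSIG1, TM7SF2, PMVK, IDI1 and FADS2, and 0 of 34 were past 2-fold downward. The shares among all genes above the filter were 6.50% and 3.64%, and among protein-coding genes above it 8.31% and 4.30%. The median difference of the 34 genes was 0.53, against 0.04 over all genes above the filter and 0.06 over the protein-coding ones. In RNA from whole cultures, a change in all cells and a change in the share of cells that express a gene cannot be told apart.

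**Figure D1:**
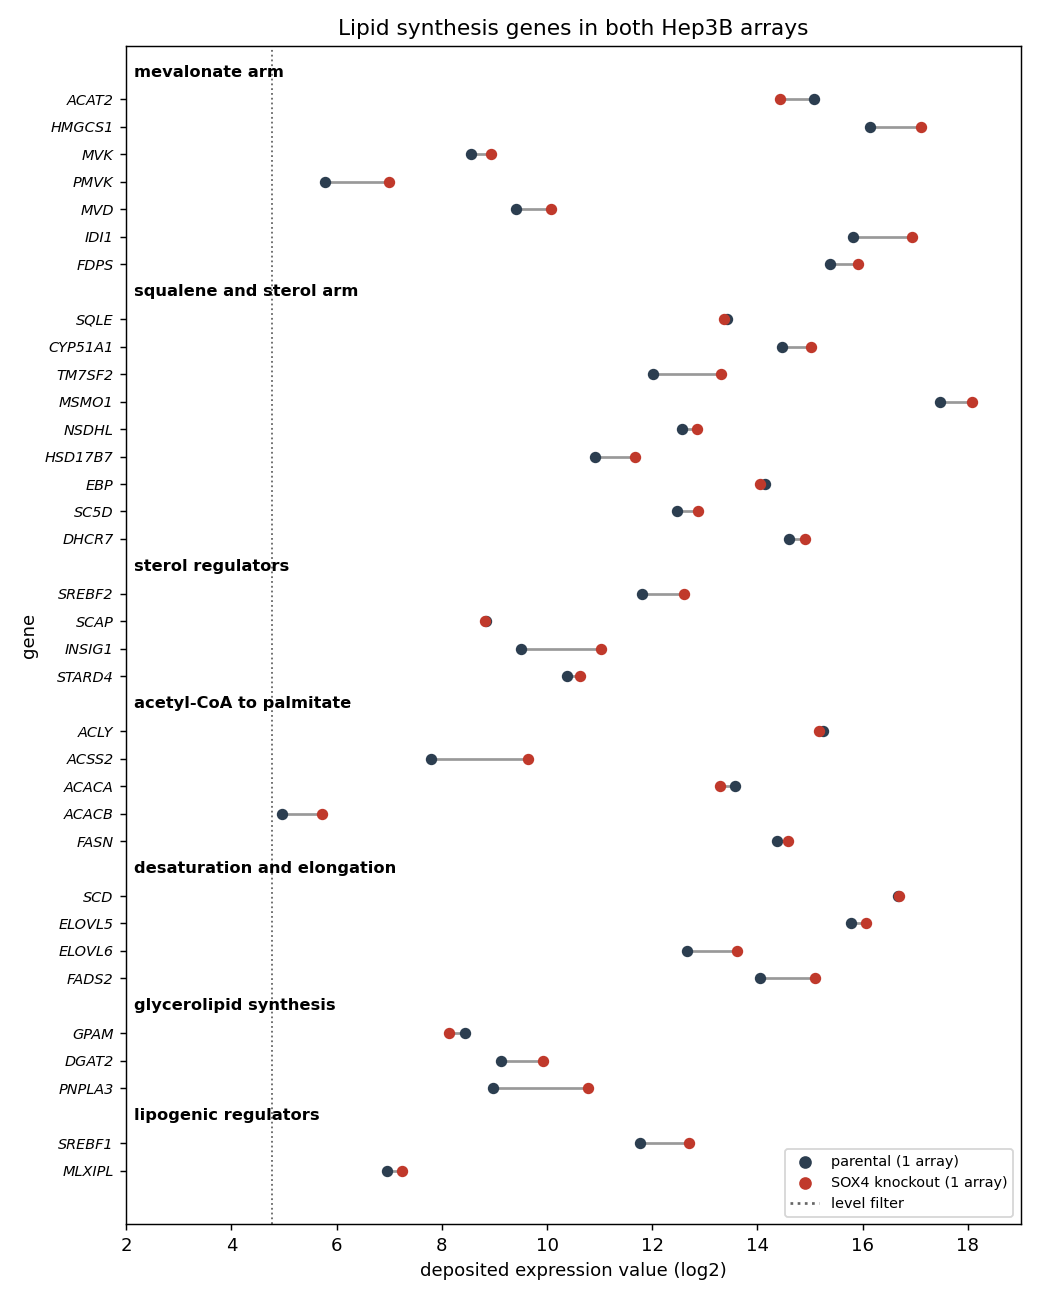
Deposited log2 value of each of the 34 measured genes (rows, grouped by role) in the parental array (dark) and the SOX4 knockout array (red), joined by a line; the dotted line is the level filter of 4.78. ACSS2, PNPLA3 and INSIG1 show the longest steps to the right, whereas SCAP and SCD overlap.

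The mevalonate arm, which turns acetyl-CoA into farnesyl diphosphate, had 6 of 7 genes higher in the knockout array and a median difference of 0.67. HMGCS1, which makes HMG-CoA and whose promoter with a pair of CCAAT boxes is printed above, stood at 17.10 against 16.14, the knockout value given before the parental one here and below. That difference of 0.96, or 1.95-fold, was just short of 2-fold. IDI1, which interconverts the isoprenoid building blocks, stood at 16.93 against 15.81. PMVK, which phosphorylates mevalonate phosphate, stood at 7.00 against 5.78, the largest step of the arm at 2.33-fold. IDI1 at 1.12 and PMVK at 1.22 were thus the mevalonate genes past 2-fold, and neither searched window held any of the 3 motifs. The window of IDI1 overlaps the protein-coding gene WDR37 and that of PMVK lies inside PMVK, so their promoters may not be covered. The decarboxylase gene MVD stood at 10.08 against 9.41 and the kinase gene MVK at 8.93 against 8.56. FDPS, which makes farnesyl diphosphate, stood at 15.92 against 15.38. These differences of 0.67, 0.38 and 0.53 pointed the same way as IDI1 and PMVK. ACAT2, the cytosolic thiolase that joins acetyl-CoA units at the entry of the arm, went the other way, at 14.42 against 15.07. Its difference of -0.64 was the lowest of all 34 genes.

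The squalene and sterol arm, which oxidises and closes squalene and trims the rings to cholesterol, had 7 of 9 measured genes higher and a median difference of 0.40. TM7SF2, a sterol reductase, was the single gene of this arm past 2-fold, at 13.31 against 12.01, a difference of 1.30. SQLE, the squalene epoxidase and a rate-limiting step of the arm, stood at 13.37 against 13.42. The epoxidase thus showed almost no step, a difference of -0.06, while the reductase stood 2.47-fold apart. The demethylase gene CYP51A1 stood at 15.01 against 14.47, and the methyl oxidase gene MSMO1, which acts after it, at 18.07 against 17.47. NSDHL, of the same demethylation complex, stood at 12.84 against 12.56. HSD17B7, the reductase of that complex, stood at 11.66 against 10.91. These 4 genes of demethylation were therefore all higher in the knockout array, by 0.29 to 0.75. Of the late steps, the isomerase gene EBP stood at 14.04 against 14.13, the desaturase gene SC5D at 12.87 against 12.47 and the final reductase gene DHCR7 at 14.90 against 14.60. EBP had 3 CCAAT matches in its window and a difference of -0.09.

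Among the sterol regulators, INSIG1 had the largest difference. INSIG1, an SREBP target that feeds back to hold SREBPs in the endoplasmic reticulum, stood at 11.03 against 9.51, or 2.86-fold apart. SREBF2, which codes for the SREBP that drives sterol genes and carries the classical element in its promoter, stood at 12.60 against 11.80. SCAP, the escort protein, stood at 8.82 against 8.84, and its other, dimmer cluster at 6.13 against 6.12. SCAP was level in both clusters, while INSIG1 and SREBF2 stood higher by 1.51 and 0.80. STARD4, a sterol carrier of the cytosol, stood at 10.63 against 10.38.

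The genes from acetyl-CoA to palmitate split. ACSS2, which makes acetyl-CoA from acetate, stood at 9.64 against 7.78, the largest difference of the set at 1.86, or 3.62-fold. A dimmer cluster of ACSS2 stood at 3.32 against 3.15, under the level filter, and the mean of both clusters differed by 1.01. ACLY, which makes acetyl-CoA from citrate, stood at 15.17 against 15.24. Of the genes for cytosolic acetyl-CoA, ACSS2 of the acetate route was therefore 1.86 higher and ACLY of the citrate route level, at -0.07. ACACA, the cytosolic acetyl-CoA carboxylase, stood at 13.28 against 13.57, and its dim cluster at 4.45 against 5.28. ACACB, the carboxylase isoform of the mitochondrial surface, stood at 5.73 against 4.97. FASN, the fatty acid synthase, stood at 14.57 against 14.37. The carboxylases thus went opposite ways, at -0.29 and 0.76, with ACACB near the level filter, and FASN differed by 0.21. The median of the 5 genes was 0.21 and their mean 0.49, and the median was 0.07 with a level filter of 6, which leaves out ACACB.

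Of the genes that desaturate and lengthen fatty acids, 4 were measured and all stood higher, with a median of 0.61. FADS2, which desaturates polyunsaturated fatty acids, stood at 15.09 against 14.06. Its difference of 1.03 lay at the threshold and was 0.9998 after quantile normalization. ELOVL6, which lengthens palmitate, stood at 13.61 against 12.67, and ELOVL5, which lengthens polyunsaturated chains, at 16.06 against 15.78. SCD, the stearoyl-CoA desaturase, stood at 16.70 against 16.68. The desaturase of polyunsaturated chains was thus 2.04-fold higher and the desaturase of saturated chains was level. The searched window of SCD holds a pair of CCAAT boxes. That of FADS2 holds none, but it overlaps the protein-coding gene FADS1. A link between motifs and differences was not tested. The SCD difference of 0.02 was below 0 after quantile normalization and after removal of the level trend.

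Glycerolipid genes went both ways. PNPLA3, a lipid droplet protein of hepatocytes and a target of SREBF1 and MLXIPL, stood at 10.79 against 8.96, a difference of 1.82 or 3.54-fold. DGAT2, which adds the last acyl chain of triglyceride, stood at 9.93 against 9.13. GPAM, the mitochondrial acyltransferase that starts glycerolipid synthesis, stood at 8.14 against 8.44, and was the lower gene of this group. The regulators of fatty acid synthesis both stood higher. SREBF1 stood at 12.70 against 11.77, a difference of 0.94 like that of ELOVL6, and MLXIPL at 7.24 against 6.96.

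**Figure D2:**
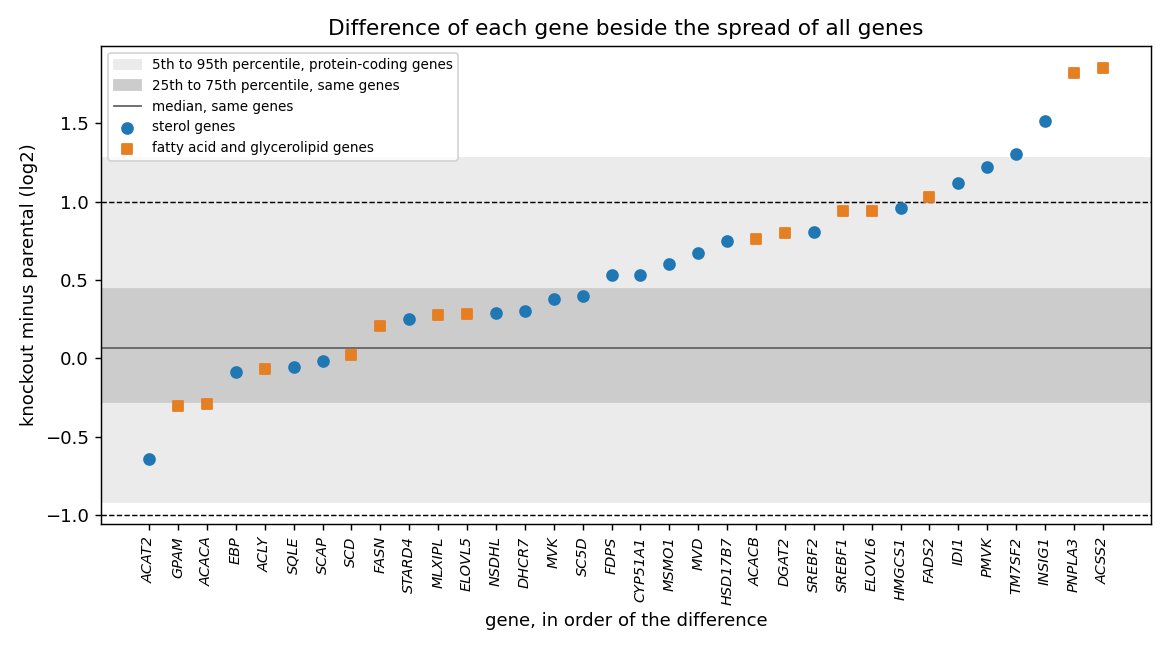
Knockout minus parental difference (log2) of each gene, in rising order, for sterol genes (circles) and fatty acid and glycerolipid genes (squares); bands show the spread of 11113 protein-coding genes above the level filter, whose central 50% ran from -0.28 to 0.44, and dashed lines mark 2-fold. ACSS2, PNPLA3, INSIG1 and TM7SF2 lie above the 95th percentile of 1.28, and no gene lies below the 5th percentile of -0.92.

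The sterol genes and the fatty acid genes had nearly equal medians. The 20 measured sterol genes had a median of 0.53 with 4 past 2-fold, and the 14 fatty acid and glycerolipid genes a median of 0.52 with 3 past 2-fold. Within each, the spread between genes was wider than the step between them, from -0.64 to 1.51 and from -0.30 to 1.86. Just inside the 2-fold threshold were FADS2 at 1.03 and IDI1 at 1.12, and just outside it HMGCS1 at 0.96, ELOVL6 at 0.94 and SREBF1 at 0.94. The 17 measured genes with CCAAT had a median of 0.53 with 3 past 2-fold, and the 12 without it a median of 0.65 with 3 past 2-fold. The 5 genes with TCANNCCAC had a median of 0.76, against 0.53 for the 24 without it, and ran from -0.07 for ACLY to 1.51 for INSIG1. The 4 genes with CACGTG had a median of 0.34, against 0.60 for the 25 without it.

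The differences were also set beside those of neighbouring genes on the chromosome. For each gene the up to 10 nearest protein-coding genes on either side that passed the level filter were taken in RefSeq order. Their median difference was at least 0.3 for 9 of the 34 genes, against 12.8% of all 11113 protein-coding genes above the filter. It was at least 0.3 for 5 of the 7 genes past 2-fold. The share among all protein-coding genes past 2-fold upward was not computed, so the 5 of 7 has no like comparison. The neighbours of TM7SF2 on chromosome 11 had a median of 0.57, with 4 of 20 at least 2-fold higher. Those of ACSS2 on chromosome 20 had a median of 0.49 with 3 of 20, and those of IDI1 on chromosome 10 a median of 0.46 with 7 of 15. Neighbours of FADS2 stood at 0.37 and those of PMVK at 0.32. INSIG1 and PNPLA3 stood apart from their surroundings, whose medians were 0.08 and 0.20. HMGCS1 and ELOVL6 were higher although their neighbours were lower, at -0.14 and -0.25. With the 9 genes left out, 2 of 25 were past 2-fold, INSIG1 and PNPLA3, and the median was 0.30. That share is close to the 8.31% among all protein-coding genes above the filter, whose median was 0.06. With each neighbourhood's median subtracted, 5 of 34 were past 2-fold, PNPLA3, INSIG1, ACSS2, ELOVL6 and HMGCS1, and the median was 0.38. ELOVL6 and HMGCS1 passed only because their neighbours were lower, and TM7SF2, PMVK, IDI1 and FADS2 fell under 2-fold. The share over all genes after this subtraction was not computed. The part of chromosomal position in these differences was not tested.

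**Figure D3:**
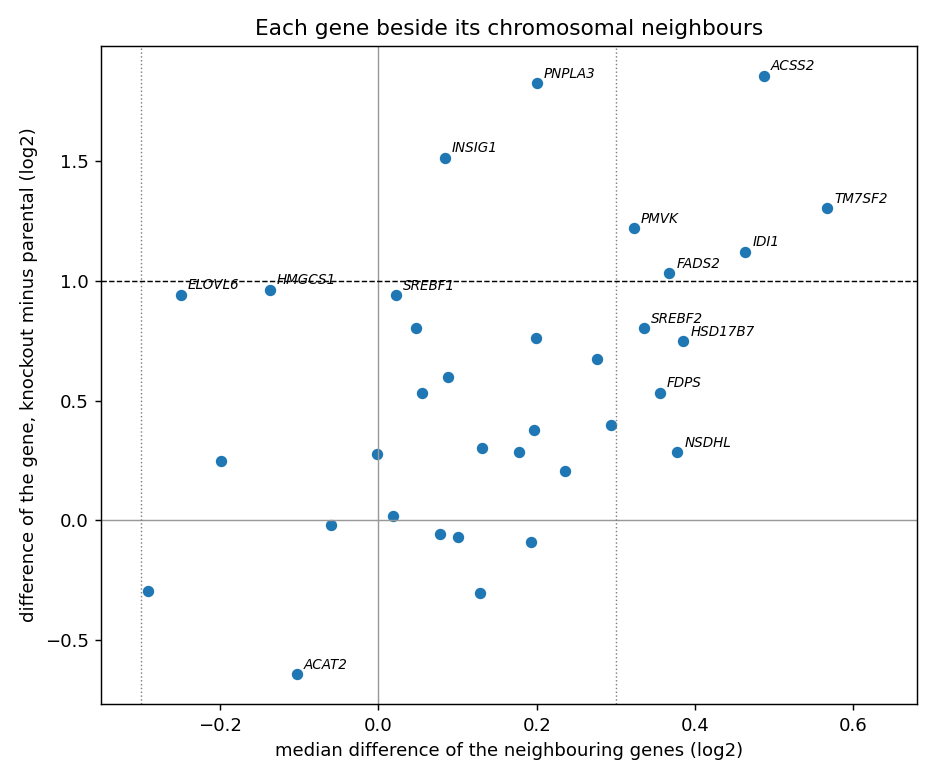
Difference of each gene (vertical, log2) against the median difference of its up to 20 nearest protein-coding genes above the level filter (horizontal, log2); the dashed line marks 2-fold and dotted lines mark 0.3 in size. TM7SF2, ACSS2, IDI1, FADS2 and PMVK lie to the right of 0.3, whereas INSIG1 and PNPLA3 lie high at neighbour medians of 0.08 and 0.20.

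Other genes of lipid metabolism showed a smaller median and some larger single differences. Of 121 such genes in 10 lists, 104 were measured and 89 lay above the filter, of which 15 were past 2-fold upward and 1 downward. The upward share was 16.9%, against 20.6% for the 34 genes of the set and 8.31% for protein-coding genes above the filter. Their median difference was 0.23. INSIG2, the second INSIG protein, was the lower gene, at 9.73 against 10.88, so that INSIG1 and INSIG2 went opposite ways at 1.51 and -1.15. The neighbours of INSIG2 on chromosome 2 had a median of -0.43. No other gene of SREBP processing was past 2-fold, and the list had a median of 0.27 but a mean of -0.05. Of the remaining sterol enzymes, LSS, which closes the sterol rings and lies on chromosome 21, stood at 10.60 against 10.91. FAXDC2, a protein with a fatty acid hydroxylase domain, stood at 15.50 against 13.00. The isoprenoid branch that leaves the mevalonate arm, towards dolichol, ubiquinone and prenylated proteins, had 0 of 12 genes past 2-fold, a median of 0.15 and a mean of -0.03. Its lowest gene was PDSS1, of ubiquinone synthesis, at -0.82. The LXR and efflux genes, which answer to high sterols, also had 0 of 6 past 2-fold, with a median of -0.06 and with the exporter gene ABCA1 lowest at -0.35 and LPCAT3 highest at 0.51.

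Sterol transport genes had 3 of 12 past 2-fold upward, against 8.31% of protein-coding genes above the filter, and a median of 0.45. GRAMD1B and GRAMD1C, which carry sterol from the plasma membrane to the endoplasmic reticulum, stood at 6.10 against 3.88 and at 8.58 against 6.85. LIPA, the lysosomal acid lipase, was 1.01 higher, and the esterifying enzyme gene SOAT1 was lowest at -0.42. The parental value of GRAMD1B lay under the level filter. The genes that supply fatty acid synthesis had 4 of 10 past 2-fold upward, against the same 8.31%, with a median of 0.58. These were ME1, the malic enzyme that yields NADPH, at 1.16, the acyl-CoA synthetase gene ACSS3 at 1.11, the mitochondrial ketoacyl synthase gene OXSM at 1.08 and the citrate carrier gene SLC25A1 at 1.02. GRAMD1B, LIPA, ACSS3 and OXSM have more than 1 cluster each, and their values are those of the brightest. With all clusters averaged, the other lipid genes past 2-fold upward went from 15 to 11. IDH1 was the lowest, at -0.22. SLC25A1, which brings citrate to ACLY, was thus higher while ACLY was level.

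Acyl chain activation and esterification showed the widest range. ACSL5, a long-chain acyl-CoA synthetase, stood at 7.57 against 4.37, where the parental value lay under the level filter, and SLC27A2 was the lowest of its list at -0.24. GPAT3, an acyltransferase of the endoplasmic reticulum, stood at 8.54 against 6.02. GPAT4, which does the same step, stood at 12.01 against 12.73, so that of the 3 genes for this step above the filter, GPAM included, 1 was higher and 2 were lower. MOGAT3 was 1.29 higher. The list of other glycerolipid genes had a median of -0.42 and a mean of 0.19. Fatty acid oxidation genes, the opposing route, had 4 of 19 past 2-fold upward, or 21.1%, and 0 past 2-fold downward. The shares among protein-coding genes above the filter were 8.31% and 4.30%. Of the 19, 16 were higher and 3 lower, with a median of 0.33. CPT1A, which admits fatty acids to mitochondria, stood at 12.17 against 9.96, and its neighbours on chromosome 11 had a median of 0.64. The carrier gene SLC25A20, the dehydrogenase gene ACADVL and the peroxisomal EHHADH were higher by 1.16, 1.11 and 1.05, and PPARGC1A was lowest at -0.55. The other elongation genes had 0 of 5 past 2-fold, too few genes to set beside these shares, with ELOVL7 at 0.97 and HACD2 at -0.09.

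**Figure D4:**
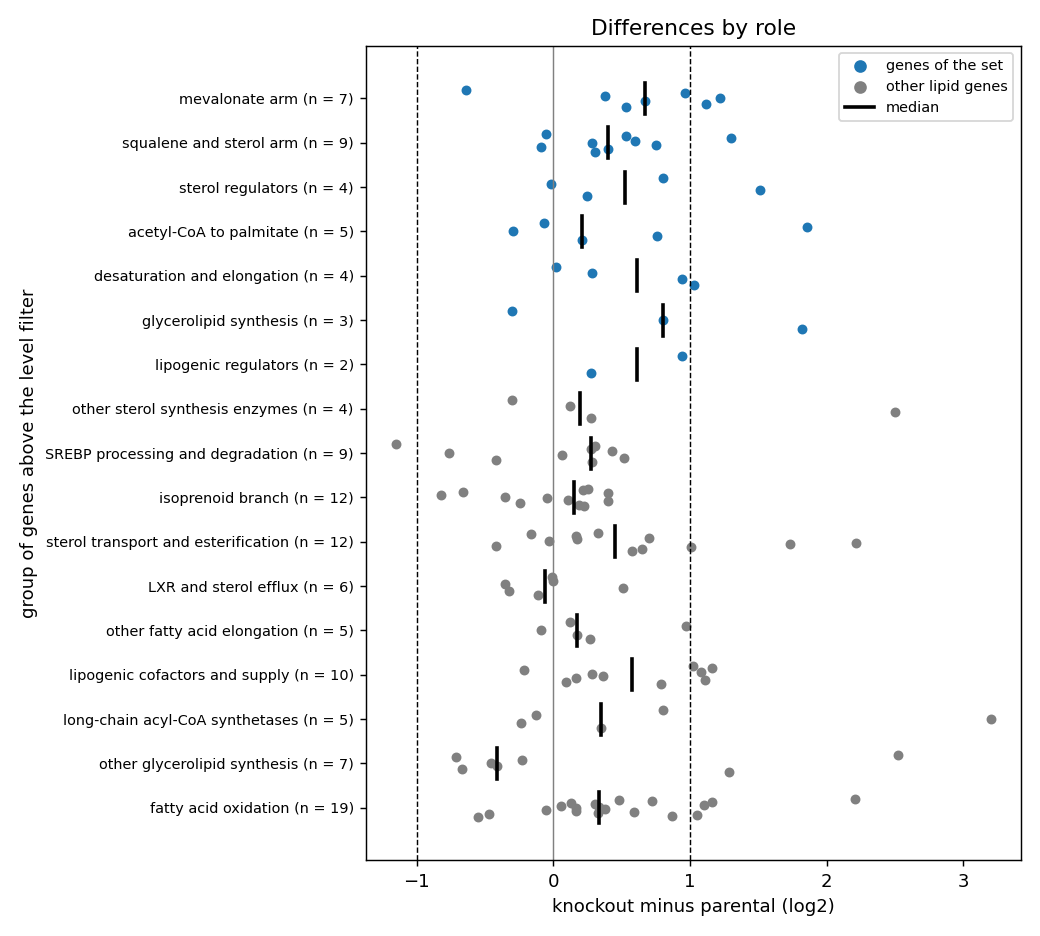
Knockout minus parental difference (log2, horizontal) of each gene above the level filter in the role groups of the set (blue) and in 10 lists of other lipid genes (grey), with the median of each group as a bar and dashed lines at 2-fold. ACSL5 at 3.20 and GPAT3 at 2.52 lie farthest to the right, and INSIG2 at -1.15 is the single gene left of the lower dashed line.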

How the data were processed

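Biotin-labelled total RNA of 1 SOX4 knockout and 1 parental Hep3B culture was measured on Affymetrix arrays. The submitters' processing notes name RMA and Transcriptome Analysis Console for the deposited log2 values, with no version or genome build. The log base is not stated and is taken from RMA. The highest values, 19.80 and 19.82, exceed what log2 of a 16-bit scanner can reach, with 5 of the 34 genes above 16 in the knockout array, so folds hold on the deposited scale only. The labels name the Human Transcriptome Array 2.0, whereas the annotation supplied with the data is that of another Affymetrix design, whose identifiers matched.

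Of 135750 transcript clusters, 36176 carried 1 gene symbol, 1119 several and 98455 none. Genes were called 2-fold apart at a difference of 1 on the log2 scale. No detection calls or scanner files were used. Members and lists were chosen with earlier results of these data known. All measured members are named; of the other lists, up to 4 genes past 2-fold and the highest and lowest above the filter, with those added for a comparison chosen after their values were seen. Gene type, chromosome and order came from RefSeq GRCh38.p14. Counting was tested on simulated data. Alternatives were quantile normalization, centred arrays, removal of a lowess trend on level (fraction 0.2), averaged clusters, other filters (none, or above 6), and thresholds of 1.5-fold and 4-fold. Python 3.11.15, pandas 2.3.3 and statsmodels 0.14.6 were used.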

Additional observations from a re-analysis of the deposited data

How the results depend on the processing

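Of 279 values recomputed under the alternatives, 273 moved by less than 0.30, or, for counts, by no more than 1.5 times. The 0.30 is the SD of the difference among genes below the level filter, and 0 of the genes past 2-fold changed direction. Many of the 279 could not move. Differences of single genes made up 203 of them, and a change of level filter leaves such a difference as it is. Averaged clusters can move the differences of only the 3 genes of the set with more than 1 cluster. The count of 273 is therefore no measure of stability. At a 1.5-fold threshold 17 of the 34 genes were apart, 16 higher and ACAT2 lower, and at 4-fold 0 were apart. Among the other lipid genes these thresholds gave 29 and 5 genes, against 16 at 2-fold. At 2-fold, averaged clusters gave 12 of these genes and removal of the level trend 13. Averaging all clusters of a gene moved ACSS2 to 1.01, and quantile normalization put FADS2 just under 2-fold, leaving 6 genes. The median of the 34 genes ran from 0.50 after quantile normalization to 0.57 with centred arrays. Leaving out the 9 genes with shifted neighbours, an alternative added after the data were seen, left 2 of 25 genes past 2-fold and a median of 0.30. The share past 2-fold upward among all protein-coding genes above the filter was 8.31%. No paired analysis was possible because there is 1 array per genotype, and for the same reason no replicate could be left out. Signal over background could not be judged without detection calls, which limits ACACB, PMVK and MLXIPL most.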
